A study of Mus musculus with 6 samples.

Results

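The genes described are 10 transcription factor genes, most of them known as immediate early genes that cells switch on within minutes of a stimulus: the AP-1 subunit genes *Fos*, *Fosb*, *Fosl1*, *Fosl2*, *Jun*, *Junb* and *Jund*, together with *Atf3*, *Egr1* and *Myc*. They were picked by gene symbol from known families, with earlier results of these data known, and all 10 were found among the 55487 gene rows of the count files. Hepatocytes, which carry out most of the metabolic work of the liver, were taken from wild-type (WT) mice and from mice homozygous for AEG-1-C75S, 3 libraries each. AEG-1, encoded by *Mtdh*, is a membrane protein of the endoplasmic reticulum, and C75S puts a serine in place of the cysteine that is palmitoylated. Both genotypes came from heterozygote matings and were 6 to 8 weeks old, RNA was taken 48 h after isolation, and every sample carried the treatment label Control. Whether each library stands for its own mouse is not stated, so p-values measure the spread between libraries, which may be technical. The comparison asked how these genes were expressed when that AEG-1 residue could not be palmitoylated.

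FOS and JUN proteins pair through leucine zippers to form AP-1, which binds the TGACTCA element. JUN proteins can pair with each other, whereas FOS proteins need a JUN partner. Growth factors and stress reach these genes through MAP kinases, which activate JUN, ATF2 and the ternary complex factors that sit beside SRF. EGR1 is a zinc finger factor driven by the same input, and MYC pairs with MAX to raise ribosome and metabolic genes. In liver these genes are known for their rapid rise after partial hepatectomy and during hepatocyte isolation.

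The sequences shown are those of the AP-1 genes whose listed start lies within 30 bases of the GENCODE gene start and that stand for the 3 patterns described below, namely *Jun*, *Junb* and *Fos*. They are RefSeq promoter windows of GRCm38.p6, from 250 bases before to 50 after the listed start, written 5′ to 3′ on the gene's strand. Capitals mark the TATA box (TATAAA), the AP-1 element (TGACTCA), its longer form (TGACNTCA) or the CArG box (the binding element of SRF) on either strand. The windows are chr4:95052173-95052472 on the minus strand for *Jun*, chr8:84978699-84978998 on the minus strand for *Junb* and chr12:85473640-85473939 on the plus strand for *Fos*.
Jun promoter: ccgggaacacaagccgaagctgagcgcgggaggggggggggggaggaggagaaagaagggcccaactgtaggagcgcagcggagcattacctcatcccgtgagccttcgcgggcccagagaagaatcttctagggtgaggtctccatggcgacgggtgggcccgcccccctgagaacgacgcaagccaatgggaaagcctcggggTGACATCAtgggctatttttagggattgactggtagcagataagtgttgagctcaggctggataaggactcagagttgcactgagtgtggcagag
Junb promoter: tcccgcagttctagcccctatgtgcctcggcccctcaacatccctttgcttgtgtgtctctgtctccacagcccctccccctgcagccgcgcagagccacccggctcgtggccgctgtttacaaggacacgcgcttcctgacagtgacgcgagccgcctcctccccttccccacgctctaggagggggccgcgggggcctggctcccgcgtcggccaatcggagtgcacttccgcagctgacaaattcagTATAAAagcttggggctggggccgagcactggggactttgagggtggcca
Fos promoter: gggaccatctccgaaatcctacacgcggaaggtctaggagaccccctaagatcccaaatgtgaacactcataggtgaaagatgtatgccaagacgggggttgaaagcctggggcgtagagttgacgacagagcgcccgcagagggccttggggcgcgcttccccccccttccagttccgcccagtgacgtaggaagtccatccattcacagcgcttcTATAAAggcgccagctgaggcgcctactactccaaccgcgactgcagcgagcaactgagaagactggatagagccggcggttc

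In these windows *Jun* held a TGACNTCA element, the AP-1 and CREB type, beginning 45 bases before the start. *Fos* held TATAAA 33 bases before the start, and in *Junb* TATAAA began at the listed start, 30 bases from the GENCODE one. RefSeq windows matched 7 of the 10 genes. TGACTCA was in 0 of the 7 windows (5.2% of 32851 windows of all genes), the CArG box in 0 (1.63%) and CACGTG in 0 (7.15%). TGACNTCA was in 1 (8.83%), TATAAA in 2 (13.6%), CCAAT in 3 (37.4%) and GGGCGG in 5 (35.7%). GCGNGGGCG, the EGR1 element, was in 2 (5.55%), *Fosb* and *Fosl2*, and overlapped a GGGCGG in both. Both strands were searched. The listed starts of *Atf3*, *Jund* and *Fosl2* lie 34706, 1210 and 671 bases from the GENCODE gene starts, so those windows describe other start sites. A match is a description of letters, and elements outside these windows were not searched.

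The transcripts have few introns. The coding transcripts of *Jun*, *Junb* and *Jund* have 0 introns, *Egr1* has 1, *Myc* 2 and the FOS family and *Atf3* 3 each, against a median of 8 over 11626 coding genes tested. ATTTA, the core of AU-rich elements that mark messages for decay, occurred in the 3′ UTR of every member, from 1 copy in *Fosb*, *Fosl1* and *Jund* to 8 in *Fosl2*. The median was 2.2 copies per 1000 bases over the 10 genes and 1.2 over all coding genes tested. The longer element TTATTTATT was in 2 of the 10 (*Fos* and *Fosl2*) and in 6.93% of coding genes tested. The 25 bases around it, from GENCODE M21 transcripts, have the element in capitals.
Fos element: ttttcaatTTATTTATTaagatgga
Fosl2 element: ttattttaTTATTTATTttaaatgt

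The libraries held 16944723 to 21044292 counts on genes, the lowest and the highest both in C75S. A count of 3 corresponded to 0.143 to 0.177 counts per 1000000 (CPM) before scaling. Of the 8 hepatocyte markers, such as *Alb* and *Hnf4a*, all were detected and 0 were called. The summed CPM of the hepatocyte list ranged from 63152 to 75395 in C75S and from 71098 to 78719 in WT. Over all 12741 genes tested, 396 (3.11%) had an adjusted p-value under 0.05 in edgeR's quasi-likelihood test, 222 higher and 174 lower in C75S. A call below means that threshold.

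Of the 10 genes, *Egr1* was called, as lower in C75S, and the other 9 were not. That is 1 of 10 against 3.11% of all genes tested in either direction and 1.37% in the lower direction (0 of 10 were called higher, against 1.74%), so with 10 genes the count itself is not set apart from the background. Without adjustment, 4 of 10 had a p-value under 0.05, against 1709 of 12741. The same 4, *Egr1*, *Jun*, *Junb* and *Fosl1*, had genotype groups that did not overlap, 2 lower and 2 higher in C75S, where 18% of all genes tested had no overlap (9.02% higher and 8.96% lower in C75S). The median log2 fold change was -0.057 over the 10 genes and -0.0030 over all genes tested. Among the AP-1 subunits, *Fosl1* and *Junb* lay above WT in all C75S libraries and *Jun* below it, though none of these passed the adjusted threshold.

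**Figure D1:**
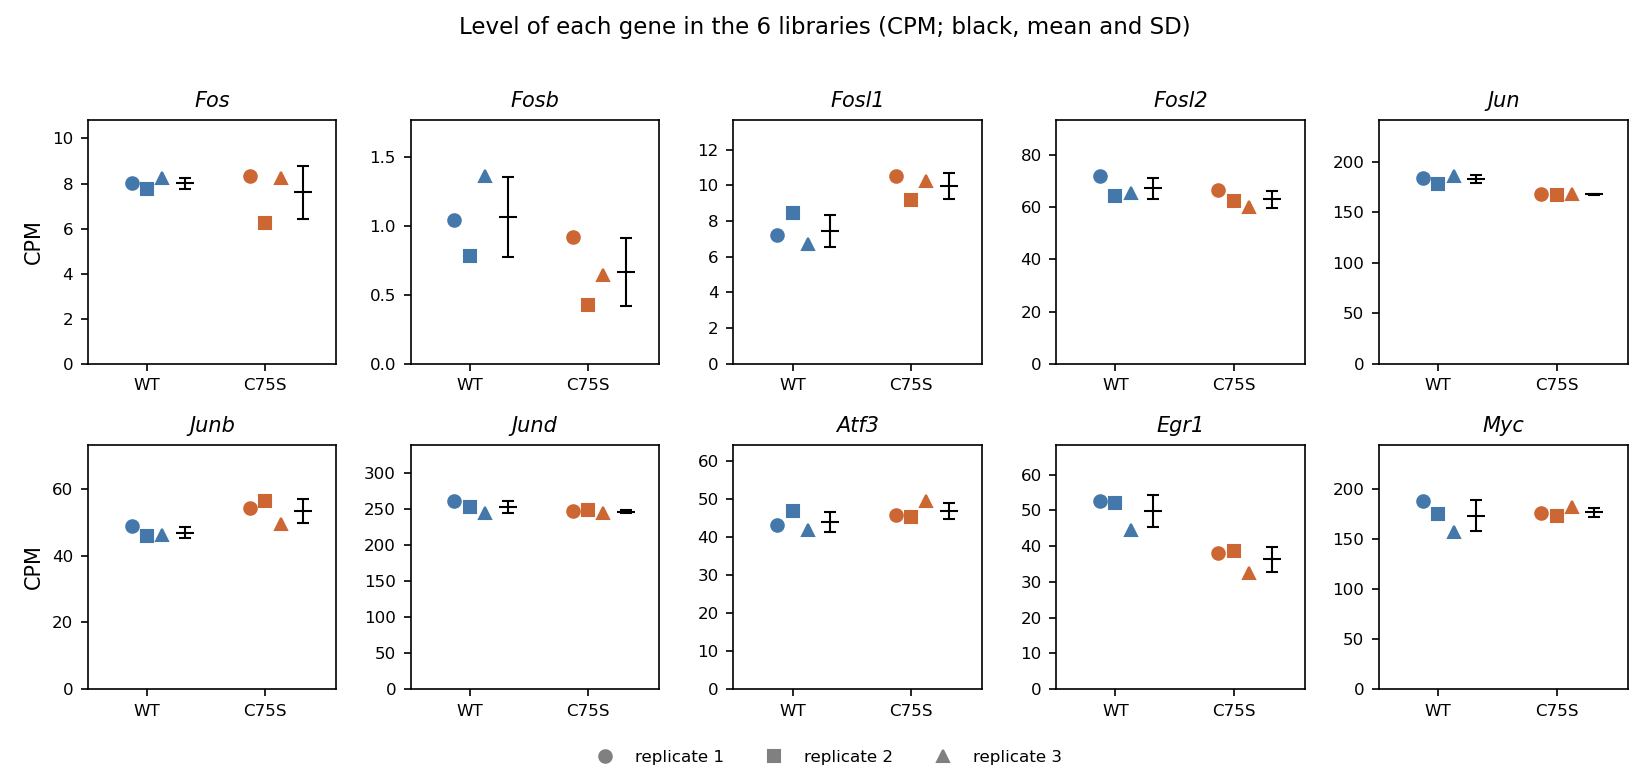
CPM on TMM-scaled library sizes (vertical axis, from 0) of the 10 genes in the 3 WT and 3 C75S libraries; symbols are replicate numbers, and black marks are mean and SD. *Egr1*, *Jun*, *Junb* and *Fosl1* are the 4 genes in which no C75S library falls within the WT range.

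*Egr1* (ENSMUSG00000038418, GRCm38 chromosome 18, 34859823 to 34864984, plus strand) codes for a zinc finger activator induced by growth factors and injury. Its level was 38.0, 38.8 and 32.4 CPM in C75S replicates 1 to 3 and 52.6, 52.1 and 44.5 CPM in WT replicates 1 to 3. The highest C75S library thus lay below the lowest WT library, and replicate 3 was the lowest of its group in both genotypes. Against a WT mean of 49.7 ± 4.5 CPM, *Egr1* fell to 36.4 ± 3.50 CPM when C75S was homozygous (mean ± SD, n = 3 each), which is 26.8% lower. The log2 fold change was -0.45 (SE 0.08, 95% interval -0.61 to -0.29), with an edgeR adjusted p-value of 0.000984. It ranked 82 by p-value among the 12741 genes. Among the 174 genes called lower, whose median log2 fold change was -0.35, 58 fell further. The call was kept in all 14 alternative fits, with log2 fold changes from -0.52 (without WT replicate 3) to -0.37 (without C75S replicate 3) and adjusted p-values no higher than 0.0142, reached when WT replicate 2 was left out. C75S replicate 2, the deepest library, had the highest *Egr1* level of its group, and the part of depth in these levels was not tested. In a bulk measurement, fewer cells expressing a gene and less RNA per cell cannot be told apart.

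**Figure D2:**
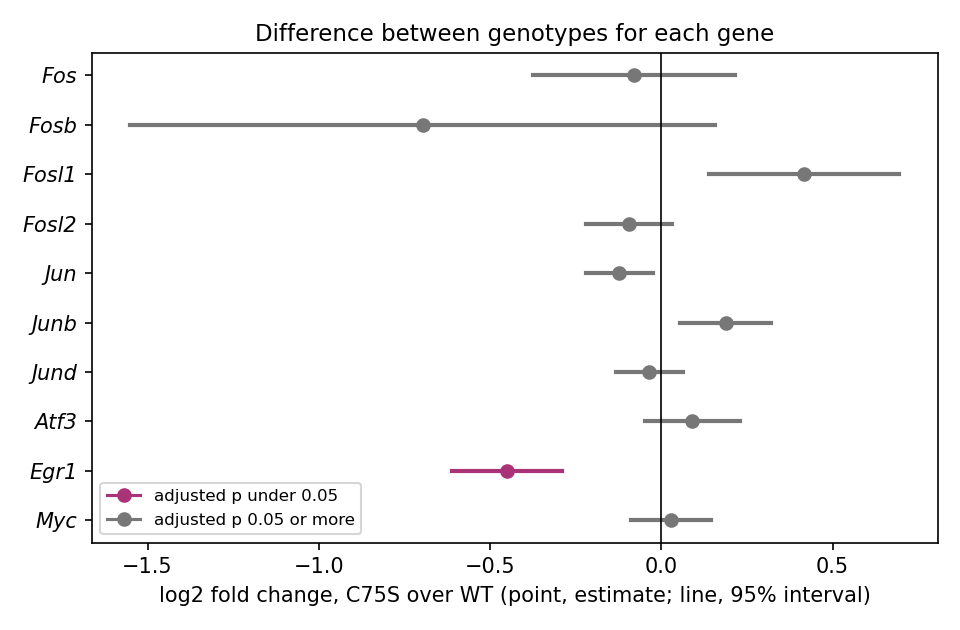
Log2 fold change of C75S over WT (horizontal axis) for each of the 10 genes; points are edgeR estimates and lines unadjusted 95% intervals. *Egr1*, at -0.45, is the called gene, and the interval is widest for *Fosb*, the gene with the fewest counts.

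Among the FOS family, *Fos* (chromosome 12, 85473890 to 85477273, plus strand) codes for the founding AP-1 partner of JUN. It was at 8.33, 6.26 and 8.24 CPM in C75S and 8.02, 7.75 and 8.25 CPM in WT, from 132 to 170 counts per library. The groups overlapped, and C75S replicate 2 stood below the other 5 libraries. Its log2 fold change was -0.079 (95% interval -0.38 to 0.22, edgeR adjusted p = 0.877), and it turned to 0.049 without C75S replicate 2. A difference was not detected, and the interval spans changes in either direction.

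*Fosl1* (FRA-1; chromosome 19, 5447547 to 5455946, plus strand) codes for a FOS protein without the activation domain of FOS. It was at 10.5, 9.16 and 10.2 CPM in C75S and 7.22, 8.43 and 6.70 CPM in WT. The groups did not overlap, but WT replicate 2 lay close to C75S replicate 2. The log2 fold change was 0.42 (SE 0.13, 95% interval 0.14 to 0.69, unadjusted and so narrower than the test over all genes allows), and the edgeR adjusted p-value of 0.107 missed the threshold. *Fosl1* shares 1163 exon bases with *Ccdc85b* on the opposite strand, so the strand of a read decides its gene. With counts taken without regard to strand the log2 fold change was 0.71 (edgeR adjusted p = 0.374), while it was 0.35 to 0.51 in the 6 fits that left out a library.

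*Fosl2* (FRA-2; chromosome 5, 32135801 to 32157842, plus strand), the related gene with the highest CPM in the FOS family, was at 66.4, 62.6 and 60.1 CPM in C75S and 71.9, 64.2 and 65.6 CPM in WT. The groups overlapped, and the estimate was -0.093 on the log2 scale (95% interval -0.22 to 0.032, edgeR adjusted p = 0.549). *Fosb* (chromosome 7, 19302696 to 19310051, minus strand) was nearly silent, with 9 to 28 counts per library. Its values were 0.919, 0.427 and 0.642 CPM in C75S and 1.04, 0.780 and 1.36 CPM in WT, which overlapped. The log2 fold change of -0.70 had a 95% interval from -1.55 to 0.16 (edgeR adjusted p = 0.505), so this depth could not tell a large fall from no change.

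Among the JUN family, *Jun* (chromosome 4, 95049034 to 95052222, minus strand) codes for the AP-1 subunit that the stress kinase JNK activates. It was at 168, 167 and 168 CPM in C75S and 184, 178 and 186 CPM in WT. The C75S libraries lay within 1 CPM of each other, all below WT. The log2 fold change was -0.12 (SE 0.05, 95% interval -0.22 to -0.025), an 8.17% lower level, and the edgeR adjusted p-value of 0.205 missed the threshold. *Junos*, its antisense neighbour, which shares 232 exon bases with it, changed by an estimated -0.025 on the log2 scale (edgeR adjusted p = 0.977).

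*Junb* (chromosome 8, 84974484 to 84978718, minus strand) codes for a weaker activator that can hold back JUN. It was at 54.5, 56.5 and 49.6 CPM in C75S and 48.9, 45.9 and 46.3 CPM in WT. The groups did not overlap, although C75S replicate 3 was only just above WT replicate 1. The log2 fold change was 0.19 (SE 0.06, 95% interval 0.055 to 0.32, edgeR adjusted p = 0.137). *Jund* (chromosome 8, 70698949 to 70700616, plus strand), the JUN gene that many resting tissues express steadily, was at 247, 248 and 244 CPM in C75S and 260, 252 and 244 CPM in WT. The groups overlapped, and the log2 fold change was -0.035 (95% interval -0.13 to 0.064, edgeR adjusted p = 0.825). *Jund* shares 877 exon bases with *Gm11175* on the opposite strand. With counts taken without regard to strand its log2 fold change was -0.12 (edgeR adjusted p = 0.435).

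*Jun* and *Junb* leaned opposite ways, so their ratio within each library was also examined, a choice made after the values were seen. The ratio of *Junb* to *Jun* counts was 0.325, 0.337 and 0.296 in C75S and 0.266, 0.257 and 0.249 in WT. The means were 0.319 ± 0.021 and 0.257 ± 0.0081 (SD, n = 3 each). The ratio of *Fosl1* to *Fosl2* counts was 0.158, 0.146 and 0.170 in C75S and 0.1004, 0.1314 and 0.1021 in WT. Both pairs were chosen because their members leaned opposite ways, so the separation of the groups is a description and carries no test. The ratio of *Egr1* to *Fos* counts was 4.57, 6.19 and 3.93 in C75S and 6.55, 6.72 and 5.40 in WT. The groups overlapped, as C75S replicate 2 lay above WT replicate 3. The other C75S ratios lay below all WT ratios.

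*Atf3* (chromosome 1, 191170296 to 191218039, minus strand) codes for a stress-induced bZIP factor that often represses and that can pair with JUN proteins. It was at 45.9, 45.4 and 49.5 CPM in C75S and 43.3, 47.0 and 41.8 CPM in WT. The groups overlapped, and C75S exceeded WT by 0.091 on the log2 scale (95% interval -0.047 to 0.23, edgeR adjusted p = 0.616). *Myc* (chromosome 15, 61985391 to 61990374, plus strand), the growth regulator, was among the most abundant of these messages in CPM. It was at 175, 173 and 181 CPM in C75S and 188, 175 and 157 CPM in WT. The WT libraries enclosed all C75S libraries. The log2 fold change was 0.028 (95% interval -0.0885 to 0.145, edgeR adjusted p = 0.894), and without WT replicate 3, the lowest library, it was -0.038.

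The genes differed far more from each other than between genotypes. To compare genes, CPM was divided by the length of merged exons in kilobases. On that scale WT levels were 151 ± 4.94 for *Jund*, 63.7 ± 5.72 for *Myc* and 57.3 ± 1.23 for *Jun* (CPM per kilobase, SD, n = 3). They were 20.5 ± 1.23 for *Atf3*, 20.4 ± 0.711 for *Junb*, 11.1 ± 1.00 for *Egr1* and 6.94 ± 0.423 for *Fosl2*. At the low end *Fosl1* was at 3.66 ± 0.438, *Fos* at 3.40 ± 0.106 and *Fosb* at 0.170 ± 0.046 CPM per kilobase. *Myc* and *Jun*, *Atf3* and *Junb*, and *Fosl1* and *Fos* were neighbours whose WT libraries overlapped. In C75S the order was the same except that *Junb*, at 23.3 ± 1.53, stood before *Atf3*, at 21.8 ± 1.04. This depends on the length used: per kilobase of the longest coding transcript, a choice made after the data were seen, *Junb* stood above *Atf3* in both genotypes (26.0 and 22.2 in WT, 29.6 and 23.7 in C75S). On that length *Fosl2* (9.20 to 10.16) also stood above *Egr1* (7.22 to 8.64) in C75S, without overlap of their libraries. In WT *Egr1* kept the higher mean, 11.1 against 10.3 for *Fosl2*, and their libraries overlapped. Also on the coding transcript length, the WT libraries of *Myc* (67.03 to 80.25) and *Jun* (55.9 to 58.25) did not overlap, nor did those of *Junb* and *Atf3*. In C75S, per kilobase of merged exons, *Fosl1* (4.90 ± 0.350) no longer overlapped *Fos* (3.23 ± 0.496).

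**Figure D3:**
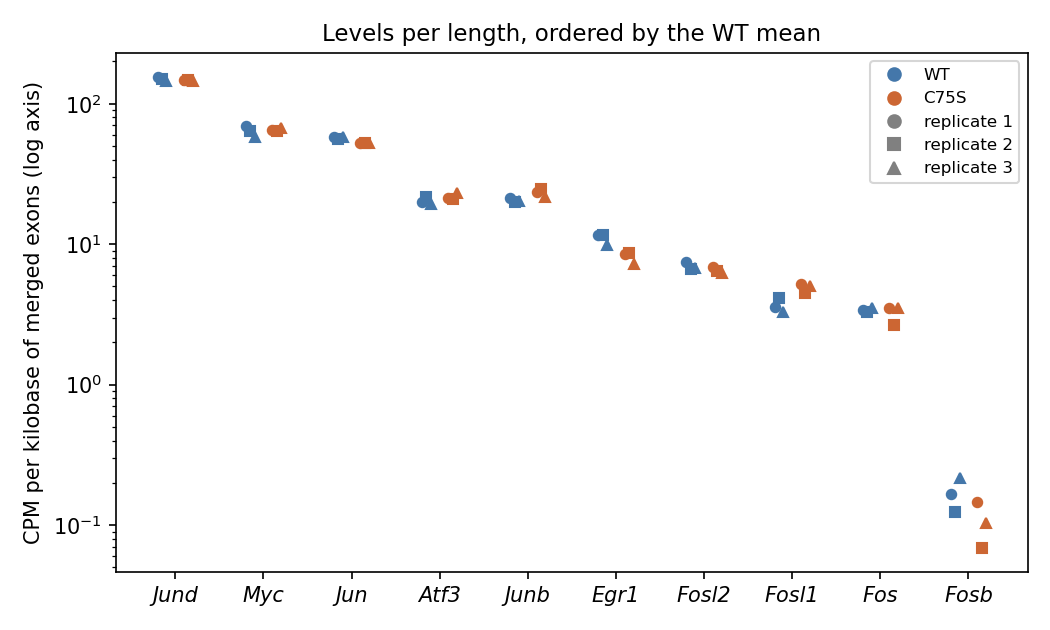
Level of each gene in CPM per kilobase of merged exons (vertical log axis) in each library, ordered by the WT mean. *Jund* is at the top near 151 and *Fosb* at the bottom near 0.170 CPM per kilobase.

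Within AP-1, transcripts of the 3 JUN genes made up 94.2% ± 0.050 of the summed level per kilobase of the 7 subunits in WT and 93.8% ± 0.422 in C75S (SD, n = 3 each). *Jund* alone held 62.2% in WT and 61.9% in C75S, and *Jun* 23.6% and 22.1%. *Junb* held 8.41% ± 0.130 in WT and 9.77% ± 0.552 in C75S, and *Fosl1* 1.51% ± 0.184 and 2.06% ± 0.151, without overlap of the groups for either. The *Jun* share did not overlap between the groups either, at 23.1% to 24.4% in WT and 21.9% to 22.4% in C75S. The shares sum to 100% in each library, so a lower share of *Jun* and a higher share of *Junb* are not independent. The summed level was 238 ± 2.56 CPM per kilobase in C75S and 243 ± 5.84 in WT. With the length of the longest coding transcript the JUN share was 92.7% in WT and 92.5% in C75S. Counts taken without regard to strand gave 92.5% in WT and 92.4% in C75S. These are message levels, and protein and phosphorylation were not measured.

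The wider immediate early set was expressed over a wide range. Of 36 further immediate early genes 31 could be tested, 17 of them higher and 14 lower in C75S, and their log2 fold changes had a median of 0.042. An unadjusted edgeR p-value under 0.05 was found for 10 of the 31, against 1709 of 12741 over all genes tested. The groups did not overlap in 8 of the 31, 6 of them higher in C75S, against 18% of all genes tested. Of the 31, 1 was called, against 3.11% of all genes tested, a count not set apart from the background. The called one was *Ccn2* (CTGF, a secreted matrix protein and target of YAP and SRF), also the most abundant of the list. It was at 930, 947 and 978 CPM in C75S and 850, 830 and 801 CPM in WT. The groups did not overlap, and the rise was 0.20 on the log2 scale (SE 0.05, edgeR adjusted p = 0.029). It lost its call without C75S replicate 2 or 3 or without WT replicate 2 or 3 (highest edgeR adjusted p 0.145, when WT replicate 3 was left out). Of *Egr1*'s own family, *Egr2* was at 0.579 ± 0.049 CPM in C75S and 0.531 ± 0.089 in WT, *Egr3* was at 0 in all C75S libraries and at most 0.146 CPM in WT, and *Egr4* was at 0 throughout. With 10 to 13 counts of *Egr2* per library, a difference in *Egr2* was not detectable at this depth (edgeR adjusted p = 0.950).

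Upstream and partner genes gave 0 calls, which for lists of this size is not set apart from the 3.11% over all genes. All 24 genes of MAP kinase cascades, ternary complex factors, *Srf* and its coactivators were tested, with 9 higher, 15 lower, 4 at an unadjusted p-value under 0.05 (1709 of 12741 over all genes) and a median log2 fold change of -0.013. The most abundant of them, *Mrtfb*, an SRF coactivator, was at 173 ± 1.11 CPM in C75S and 183 ± 1.95 in WT (edgeR adjusted p = 0.511). The groups did not overlap in 3 of these 24 genes, 1 of them higher in C75S, against 18% of all genes tested. Of 15 further bZIP partner genes 12 were tested, 7 higher and 5 lower, with 2 at an unadjusted p-value under 0.05. *Atf4*, the most abundant, was at 331 ± 9.53 CPM in C75S and 340 ± 27.3 in WT (edgeR adjusted p = 0.830). The groups did not overlap in 1 of the 12, which was higher in C75S. DESeq2 and limma-voom also called 0 in both lists.

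Of 23 genes known as targets of AP-1 or EGR1, 16 were tested, 11 higher and 5 lower in C75S. Of the 16, 4 were called, 3 higher and 1 lower, where 1.74% of all genes tested were called higher and 1.37% lower. The median of the 16 was 0.22 on the log2 scale. An unadjusted edgeR p-value under 0.05 was found for 8 of the 16, against 1709 of 12741 over all genes tested. The groups did not overlap in 8 of the 16, 7 of them higher in C75S, against 18% of all genes tested. *Plaur*, the urokinase receptor, averaged 58.8 ± 0.939 CPM in C75S and 39.8 ± 2.58 in WT, a rise of 0.56 on the log2 scale (SE 0.06) with an edgeR adjusted p of 4.46e-06. Its C75S libraries were at 59.8, 57.9 and 58.6 CPM and its WT libraries at 41.3, 41.3 and 36.8 CPM. *Ccnd1*, the G1 cyclin, rose from 4.38 ± 0.808 to 9.11 ± 1.13 CPM, the largest log2 fold change of the called genes in these lists at 1.06 (edgeR adjusted p = 0.000228). *F3*, tissue factor, rose from 58.0 ± 3.78 to 73.1 ± 4.61 CPM (edgeR adjusted p = 0.00209). *Hmox1*, heme oxygenase, fell from 343 ± 36.5 to 269 ± 4.82 CPM (edgeR adjusted p = 0.000997). These 4 kept their calls in all 14 alternative fits. *F3*, a known target of EGR1, was higher in C75S while *Egr1* was lower, and a link between them was not tested. The EGR corepressor genes *Nab1* and *Nab2* overlapped between genotypes. *Mmp3*, *Mmp10* and *Il6* were at 0 in all libraries.

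**Figure D4:**
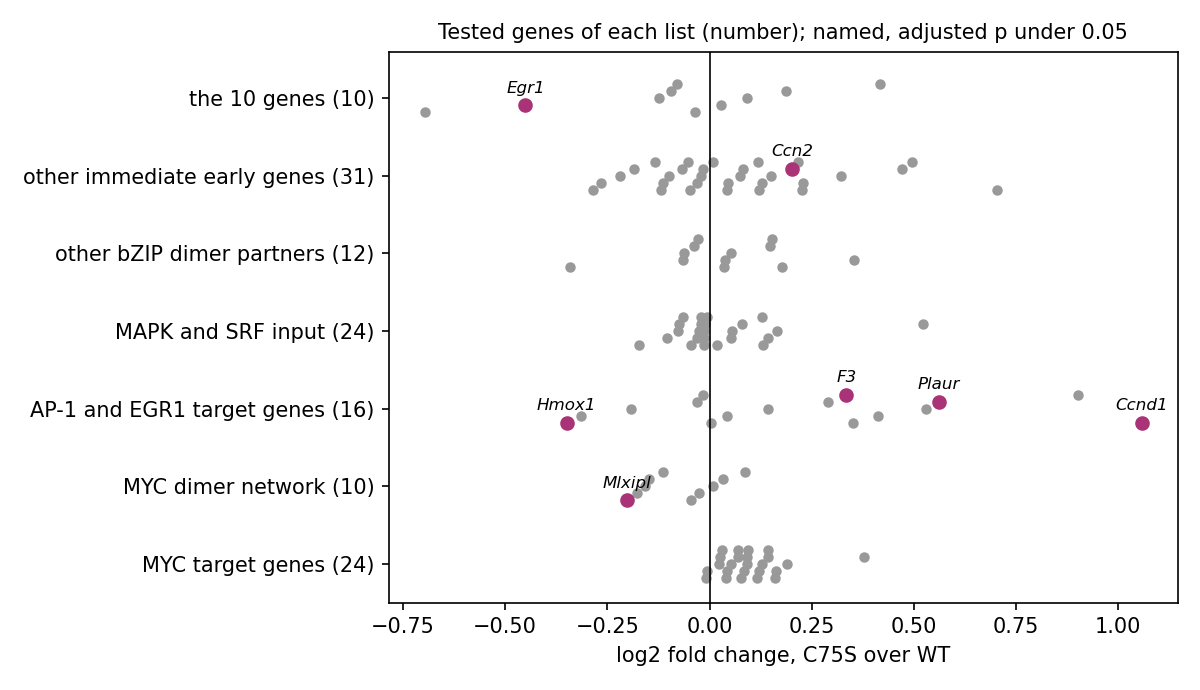
Log2 fold change of C75S over WT (horizontal axis) of every tested gene in the 10-gene set and 6 related lists, with the number tested in brackets; vertical offsets within a row only separate points. Named, larger points are the called genes: *Egr1*, *Hmox1* and *Mlxipl* are below 0, and *Ccn2*, *F3*, *Plaur* and *Ccnd1* above it.

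The MYC network had 10 testable genes of 12, 3 higher and 7 lower, and the median was -0.079 on the log2 scale. Of the 10, 1 was called, against 3.11% of all genes tested, and with 10 genes that count is not set apart from the background. An unadjusted edgeR p-value under 0.05 was found for 3 of the 10, against 1709 of 12741 over all genes tested. The groups did not overlap in 3 of the 10, 0 of them higher in C75S, against 18% of all genes tested. Over all 12 genes the summed CPM was 668 to 678 in C75S and 716 to 732 in WT. The called gene was *Mlxipl* (ChREBP, the glucose-sensing partner of MLX), also the most abundant. It fell from 205 ± 7.19 to 178 ± 5.80 CPM (log2 fold change -0.20, edgeR adjusted p = 0.0205). It lost its call without C75S replicate 2 or 3 or without WT replicate 1 or 3 (highest edgeR adjusted p 0.114, when C75S replicate 3 was left out). *Max*, the obligate MYC partner, was at 44.2 CPM in C75S and 43.2 in WT with overlapping groups. Of 24 genes known as MYC targets, many of them in ribosome assembly and others in translation, metabolism or the cell cycle, all were tested and 0 were called, with 5 at an unadjusted p-value under 0.05 and 0 calls by DESeq2 or limma-voom. Their log2 fold changes were above 0 in 22 of the 24, with a median of 0.087 against -0.0030 over all genes tested. The groups did not overlap in 6 of the 24, 6 of them higher in C75S, against 18% of all genes tested. Genes of 1 pathway share regulation and are not independent, so these values are a description. *Ldha*, the most abundant, was at 1070 ± 123 CPM in C75S and 1053 ± 114 in WT, and *Odc1*, the polyamine enzyme, at 103 ± 6.01 and 91.6 ± 3.24 CPM (edgeR adjusted p = 0.132).

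Markers of other liver cells were also measured. For Kupffer cells and macrophages the summed CPM of 8 markers was 96.4 to 140 in C75S and 102 to 134 in WT, nearly all *Cd68*. The Kupffer genes *Clec4f*, *Adgre1* and *Cd5l* were each detected in a single library. Endothelial markers summed to 33.3 to 43.2 CPM in C75S and 31.3 to 41.96 in WT, mostly *Stab2*. Of 6 tested endothelial genes 5 were higher in C75S, *Stab2* was the lower one, and 0 were called. Their median was 0.55 on the log2 scale, and 2 had an unadjusted edgeR p-value under 0.05. The groups did not overlap in 3 of the 6, all higher in C75S, against 9.02% of all genes tested in that direction. Stellate markers summed to 53.3 to 69.9 CPM in C75S and 68.8 to 91.2 in WT, mostly *Reln*. Of 4 tested stellate genes 1 was higher and 3 lower, with overlapping groups and 0 called. Cholangiocyte markers summed to 180 to 234 CPM in C75S and 160 to 168 in WT, without overlap, and of 5 tested genes 3 were higher and 2 lower. Most of the difference in that sum was *Spp1*, at 131 ± 25.8 CPM in C75S and 91.0 ± 6.43 in WT (edgeR adjusted p = 0.235). *Krt19* of that list was called, at 9.52 ± 1.22 CPM in C75S and 5.47 ± 0.258 in WT (edgeR adjusted p = 0.00151). That is 1 of the 5 tested, against 3.11% of all genes tested. *Spp1* is also on the AP-1 target list, while *Cftr* was at 0 throughout. By limma-voom, and without C75S replicate 1 or 3, the cholangiocyte list had 2 calls against 1. In the same fits the AP-1 target list, which shares *Spp1* with it, had 5 against 4. The part of these markers in the *Egr1* difference was not tested.

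Over the 6 libraries, the genes whose log2 CPM was most like that of *Egr1* were *Lgalsl* (Pearson r = 0.988), *Rps6ka3* (0.985) and *Ift81* (0.985), among 9398 genes with at least 5 CPM. *Rps6ka3*, the RSK2 kinase gene, was at 46.9, 47.3 and 45.4 CPM in C75S and 52.9, 53.5 and 50.9 CPM in WT (edgeR adjusted p = 0.153), and *Lgalsl* was itself called lower (edgeR adjusted p = 0.0264). For *Fos* they were *Wdr35* (0.989), *Yju2* (0.985) and *Tspan12* (0.968), and for *Myc* they were *Cers6* (0.993), *Cops7a* (0.977) and *Lrrc57* (0.975). These values describe 6 points that share library and genotype, picked as the highest among those 9398 genes, and carry no test. Among the members themselves, the values of *Egr1* were 0.798 with *Jun*, 0.760 with *Jund*, 0.715 with *Fosl2* and 0.463 with *Fosb* over the same 6 libraries. They were -0.730 with *Fosl1*, -0.551 with *Atf3*, -0.550 with *Junb*, 0.051 with *Fos* and 0.0075 with *Myc*.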

How the data were processed

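RNA was sequenced from mouse hepatocytes, 3 C75S and 3 WT libraries, grouped by sample title. Values were deposited as raw counts for each Ensembl gene, laid out as STAR writes them. The submitters' processing notes name Trim Galore 0.6.6, STAR 2.7.9a and edgeR 3.36.0 with GRCm38 (mm10), and the annotation release is not given in the sources used here. The reverse-strand column was used, as its total was 32.9 to 33.9 times the forward one. The 4 summary rows entered neither library sizes nor tests, and unmapped reads were 4.37% to 5.81%, multimapping 17.98% to 18.54%, no feature 4.99% to 5.55% and ambiguous 0.89% to 0.93%. Names and positions are from GENCODE M21, which held 55227 of the 55487 rows.

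Genes were filtered with filterByExpr (minimum count 10, total 15), TMM-scaled and fitted in R 4.3.3 by edgeR 4.0.16 (robust quasi-likelihood, genotype only, two-sided), with Benjamini-Hochberg adjustment over 12741 genes. Each SE is the log2 fold change divided by the square root of F. On simulated counts for these 12741 genes, 74% of 200 genes changed 1.5-fold were called and 8.07% of calls were false, against a threshold of 0.05. The counts were a single draw that took the fitted dispersions as true. Smaller changes, such as those estimated for all members except *Fosb*, were not simulated. Alternatives were scaling by library size, RLE or upper quartile, no filter, DESeq2 1.42.0, limma-voom (limma 3.58.1), unstranded counts, a replicate block and leaving out each library. A length from the longest coding transcript was added after the data were seen.

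The members and lists were chosen with earlier results of these data known. Besides the 10 genes, the naming rule took up to 3 called genes per list, the most abundant gene of each list, and the 3 genes most correlated with *Fos*, *Egr1* and *Myc*. Further genes are named after their values were seen. A gene that this rule chose is not reported here.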

Additional observations from a re-analysis of the deposited data

How the results depend on the processing

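*Egr1* stayed the called member in each of the 14 alternative fits, and the other 9 stayed uncalled. Leaving out 1 library at a time, the log2 value of *Fos* lay between -0.1483 when C75S replicate 1 was dropped and 0.0492 (without C75S replicate 2), and that of *Myc* ran from -0.0381 (without WT replicate 3) to 0.0921 (without WT replicate 1), so both turned, far from the threshold, while no other member changed direction. The replicate block, which rests on shared numbers only (deviations from group means correlated at 0.017, -0.040 and 0.025 between same-numbered libraries, and not every library correlated best with its own number), put *Egr1* at -0.451 on the log2 scale (edgeR adjusted p = 0.000104) and 480 called genes against 396. Leaving out a library gave 201 (without WT replicate 2) to 355 called genes, with 246 without WT replicate 3 and 253 without C75S replicate 1. Fewer libraries are tested in these fits. The fit with no filter called 573 genes and 11 genes of the related lists against 7, and the cause was not tested. The immediate early list had 0 (without C75S replicate 2 or WT replicate 3) to 3 calls (no filter) against 1, with 2 by DESeq2 and by limma-voom. The cholangiocyte list had 2 by limma-voom and without C75S replicate 1 or 3, against 1. The hepatocyte list had 1 with the replicate block against 0, and the stellate list 1 with no filter against 0. Genes of a few counts per library, such as *Fosb*, are limited by depth.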
